A study of Mus musculus with 11 samples.

Results

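The regions described here are the H3K4me3 peaks of day 2 embryoid bodies with both Wdr5 and p53 knocked out (DKO) that shared no base with any H3K4me3 peak of the wild type (WT). They numbered 1406 of the 6418 DKO peaks on chromosomes 1 to 19, X and Y (21.9%), and are called gained peaks as a name only. The members were chosen by the measured peak calls of the DKO and WT lists, so that contrast supports nothing further. The other 5012 DKO peaks overlapped a WT peak by at least 1 base. In the opposite direction, 4999 of the 9836 WT peaks (50.8%) shared no base with a DKO peak, and the DKO list was the shorter one.

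The study profiled WDR5, P53 and H3K4me3 by CUT&RUN, in which an antibody bound to chromatin guides a nuclease that releases the DNA around it for sequencing. The cells were mouse embryonic stem cells with a GFP knock-in at Rx, a homeobox gene of the eye field, grown as embryoid bodies by SFEBq, a serum-free aggregation culture, in GMEM with 5% KSR (a serum replacement). All 3 genotypes, WT, Wdr5 knockout (KO) and DKO, were taken at day 2, after doxycycline removal at day 0 and addition of 2% matrigel at day 1, with 2 µg of antibody for 2 M (mega) cells. The labels do not say what doxycycline controlled, which alleles were deleted or how many clones were used.

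H3K4me3, trimethylation of lysine 4 of histone H3, lies around the start sites of active and poised genes, most densely at CpG islands. It is written by the SET1 and MLL methyltransferase complexes, in which WDR5 is a shared scaffold subunit, and read by factors that recruit the transcription machinery. P53 is the stress-activated transcription factor encoded by Trp53 that induces arrest, repair and cell death genes.

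Each genotype had 1 H3K4me3 library, so no difference between genotypes has a replicate check, no p-value is given, and the 95% intervals (Wilson) cover counting error only. The WT library was made of 34.2 M fragments, that of KO of 22.3 M and that of DKO of 43.2 M, and the 8 WDR5 and P53 lists had 23.9 M to 57.5 M. The lists hold no signal outside peaks: a gained peak is a place where WT had no call, and the WT signal there was not analysed here. Defining markers were checked by whether an H3K4me3 peak lay within 1 kb of the gene start. Among 6 pluripotency markers, WT had a peak at Pou5f1, Sox2, Utf1 and Zfp42, DKO at Pou5f1, Nanog, Utf1 and Zfp42, and KO at Pou5f1, Sox2 and Utf1. Of 6 anterior neural markers only Otx2 was marked, in WT and DKO, and Six3, Rax, Lhx2, Hesx1 and Sox1 had no peak in any genotype. Of 6 mesoderm and endoderm markers only Eomes was marked, and of 4 fibroblast feeder markers only Thy1, both in WT alone. Of 4 trophoblast markers, Krt18 was marked in WT and DKO and Krt8 in WT. The other markers of these sets had no peak in any genotype.

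Promoter sequences are printed as examples of start sites under gained peaks far from WT peaks, and do not stand for those peaks as a set. Of the 61 RefSeq promoters touched by a gained peak more than 5 kb from any WT peak, at genes with no WT peak, 35 had at least 100 of the 250 bases before the start covered. The 5 printed below have high peaks among these, by a choice made after their values were seen. They run 5′ to 3′ in the direction of the gene and end at the base before the start site (RefSeq, GRCm38.p6, the assembly of mm10). Capitals mark exact matches, on either strand, to the 8 motifs searched. These were the TATA box (written TATAAA), the CCAAT box known for NF-Y, the GC box of SP factors (GGGCGG), the E-box of MYC and related factors (CACGTG), the octamer of POU factors (ATGCAAAT), the cAMP response element (TGACGTCA), the NRF1 palindrome and the site of ETS factors (CCGGAAG).
1700030K09Rik (chr8:72443630-72443879, plus strand): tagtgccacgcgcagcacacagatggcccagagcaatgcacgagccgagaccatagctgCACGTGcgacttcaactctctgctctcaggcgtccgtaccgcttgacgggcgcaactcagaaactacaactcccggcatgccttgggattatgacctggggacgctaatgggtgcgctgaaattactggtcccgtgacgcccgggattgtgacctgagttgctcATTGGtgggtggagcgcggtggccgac
Tmem17 (chr11:22512033-22512282, plus strand): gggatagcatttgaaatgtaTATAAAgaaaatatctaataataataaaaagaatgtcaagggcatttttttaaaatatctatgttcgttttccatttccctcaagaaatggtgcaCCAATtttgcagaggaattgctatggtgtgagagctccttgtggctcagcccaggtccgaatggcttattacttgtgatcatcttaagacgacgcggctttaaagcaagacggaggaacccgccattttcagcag
Prss35 (chr9:86743383-86743632, plus strand): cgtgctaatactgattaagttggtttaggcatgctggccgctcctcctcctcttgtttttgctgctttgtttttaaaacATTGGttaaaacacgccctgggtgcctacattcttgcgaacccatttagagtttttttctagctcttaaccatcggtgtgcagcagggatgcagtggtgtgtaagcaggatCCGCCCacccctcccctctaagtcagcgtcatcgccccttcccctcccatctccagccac
Sephs1 (chr2:4882588-4882837, plus strand): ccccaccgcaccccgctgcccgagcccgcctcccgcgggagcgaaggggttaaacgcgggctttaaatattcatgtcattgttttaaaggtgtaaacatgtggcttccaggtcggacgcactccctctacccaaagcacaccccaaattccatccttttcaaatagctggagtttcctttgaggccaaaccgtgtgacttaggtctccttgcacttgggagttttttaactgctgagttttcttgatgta
Gtsf1l (chr2:163089602-163089851, minus strand): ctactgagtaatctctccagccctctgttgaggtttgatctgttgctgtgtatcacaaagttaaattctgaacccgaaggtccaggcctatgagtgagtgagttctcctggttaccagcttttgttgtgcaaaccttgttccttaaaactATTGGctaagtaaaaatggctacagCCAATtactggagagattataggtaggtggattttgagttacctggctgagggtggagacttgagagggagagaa

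1700030K09Rik carried a match to the E-box at -191 and to the CCAAT box at -27, counted from the start site, and its gained peak, of fold 4.86, covered 165 of the 250 bases and ended before the CCAAT box. The promoter of Tmem17, a protein of the ciliary transition zone, was covered whole by a peak of fold 4.73 and had matches to the TATA box at -230 and the CCAAT box at -135. Prss35, a serine protease family member, had the CCAAT box at -171 and the GC box at -60, and its peak, of fold 4.72, covered 139 of the 250 bases and ended before the GC box. The promoter of Sephs1, a selenophosphate synthetase family gene, was also covered whole, at a fold of 4.53, and matched none of the 8 motifs. Gtsf1l, a relative of a germ cell gene, had 2 CCAAT box matches, at -100 and -75, under a peak of fold 4.33. The printed promoters differed in base composition: GC content ran from 39.2% at Tmem17 to 60.0% at 1700030K09Rik, and the observed over expected CpG ratio from 0.0861 at Gtsf1l to 0.890 at 1700030K09Rik. A match is a description of the letters and not a bound site.

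The first question was where gained peaks lay relative to the WT peaks. The distance between peak edges ranged from 1 to 3888077 bases with a median of 5550, but few peaks were near that median. Of the 1406, 586 (41.7%, interval 39.1 to 44.3) lay within 1 kb of a WT peak and are called flanking. A further 709 (50.4%) lay more than 5 kb away and are called distant, and 111 (7.89%, 6.60 to 9.42) lay between. The limits of 1 and 5 kb were set after the distances were seen. The flanking peaks had a median distance of 329 bases and the distant peaks one of 36067 bases.

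**Figure D1:**
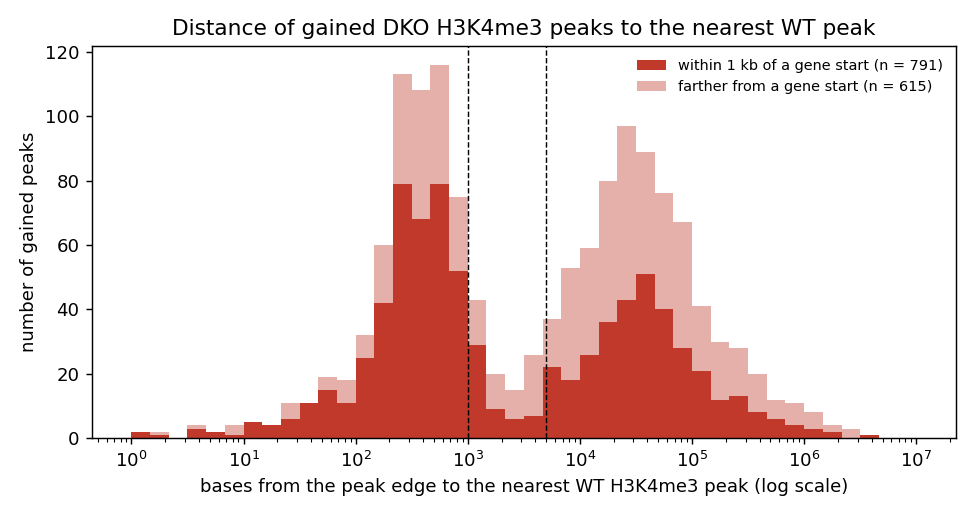
Number of gained DKO H3K4me3 peaks by distance from the peak edge to the nearest WT H3K4me3 peak, on a log axis. They are split by whether a gene start, or either gene end where no start is listed, lies within 1 kb. Dashed lines mark 1 and 5 kb. The 586 flanking and 709 distant peaks form a pair of humps with 111 peaks between them.

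The 5 gained peaks nearest to a WT peak, at Kirrel, Chid1, Ints10, Rab3ip and Glul, were 1 to 4 bases from one and had a DKO fold of 3.15 to 4.55. The 5 peaks left out with the smallest overlap, at Uap1, Med22 and Rpl7a, Anln, Khnyn and Pdcd10, had a fold of 2.98 to 3.48. For the flanking peaks the neighbouring WT peak was itself overlapped by another DKO peak in 284 of 586 (48.5%, 44.4 to 52.5). In the remaining 302 (51.5%) the neighbouring WT peak had no DKO peak on it. Among all WT peaks 49.2% shared a base with a DKO peak.

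At some genes a gained peak and a WT peak both lay within 1 kb of a start without sharing a base. Whether such calls are pieces of the same mark was not tested. At Paxip1, which encodes a subunit of the MLL3 and MLL4 complexes, 2 gained peaks of 369 and 673 bases stood 399 and 205 bases from the nearest WT peak. For both, that WT peak had a fold of 4.52. At Setd1a, an H3K4 methyltransferase, the gained peak of 449 bases stood 978 bases from a WT peak of fold 6.60. Where both a flanking summit and its WT neighbour's summit lay within 2 kb of a start, the gained summit was the farther one in 306 of 415 (73.7%, 69.3 to 77.7). As the rule bars a gained peak from sharing a base with the WT peak, this count in part restates the rule.

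Gained peaks were low and narrow among DKO peaks. Fold is the authors' enrichment of the peak summit over the local background of the same library. It is given as a description, since the DKO list chose the members. The median fold was 3.52 for gained peaks (10th to 90th percentile 3.03 to 4.27, highest 9.81) and 4.01 for the other DKO peaks. The median width was 302 against 469 bases, the median pileup (fragments over the summit) 24 against 28, and the median -log10 q 4.67 against 6.61. A fold above the DKO median was reached by 357 gained peaks (25.4%, 23.2 to 27.7), against 56.9% of the others. Distant peaks had a median fold of 3.60, against 3.48 for flanking ones. Their median pileup was 23 against 24 and their median -log10 q 4.66 against 4.67, so the order held for fold only.

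**Figure D2:**
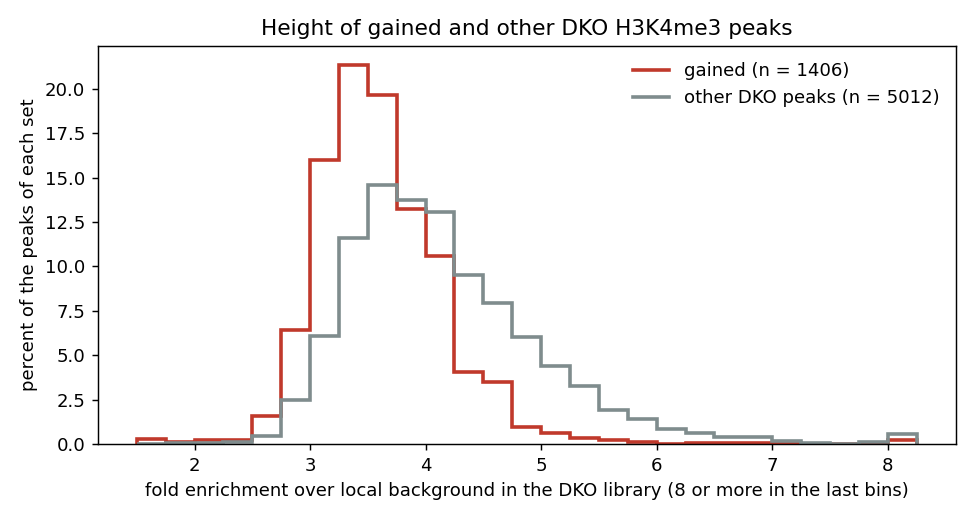
Share of gained (n = 1406) and other DKO (n = 5012) H3K4me3 peaks by fold enrichment over local background in the DKO library, with values of 8 or more in the last bins. The gained peaks centre on 3.52 and the others on 4.01.

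Of the 20 highest gained peaks, 4 lay within 1 kb of a gene start, 12 lay outside genes, and 8 were in a single stretch of chromosome 8. The highest, of fold 9.81 and 299 bases, lay inside 4930467E23Rik, 1393 bases from its start. Away from that stretch the highest was inside Kctd16 (fold 7.19, chromosome 18), a gene for an auxiliary subunit of GABA-B receptors, where both DKO P53 lists had a peak too, of fold 5.62 and 6.91. Rbbp7, a histone chaperone of several chromatin complexes, had a peak of fold 5.78 and 589 bases inside the gene, 1289 bases from the start. The 4 at starts were at Gm20385 (5.60), at Surf1 and Surf2 (5.48), at Sord, sorbitol dehydrogenase (5.37), and at Zfp980 (5.24). Of these, Sord was flanking, at 259 bases from a WT peak.

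The widest gained peak spanned 2169 bases outside genes, 22528 bases from the start of Cyp2b23, with a fold of 3.90. Of the 10 widest, 5 were at a start: Ankrd11 (1247 bases), Lyrm2 (1153), Tardbp (1032), Zfp988 (1012) and Fbxo15 (998). Fbxo15 encodes an F-box protein known as an embryonic stem cell marker, and its gained peak lay 14875 bases from the nearest WT peak. The farthest gained peak, 3888077 bases from a WT peak, was at the start of Gtdc1 (fold 3.92, 343 bases). Of the 10 farthest, 4 were at starts; the others of these were at Sms, spermine synthase (fold 3.85), Mcts1 (3.33) and Ddx18, an RNA helicase (3.50).

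The second question was where gained peaks lay relative to genes. A start site of a protein-coding gene lay within 1 kb of 791 gained peaks (56.3%, 53.7 to 58.8), against 86.2% of the other DKO peaks and 79.7% of all DKO peaks. For 4392 genes without a listed start, either end of the gene counted as a start in all counts within 1 kb of a start. Some of these peaks may thus lie at the far end of a gene. Positions inside a gene and farther from a start held 310 gained peaks, against 7.78% of the others, and positions outside genes and farther from a start held 305 (21.7%), against 5.99%. Flanking peaks were at a start in 69.3% (65.4 to 72.9) and distant peaks in 46.4% (42.8 to 50.1), so neither class had the share of the other DKO peaks. Gained peaks overlapped no protein-coding gene span in 36.8%, against 11.7%.

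Genes of other classes were counted within 500 bases of all gained and all other DKO peaks, those at protein-coding starts included. Of the gained peaks, 1.56% (1.04 to 2.36) had a pseudogene, against 0.638% (0.453 to 0.900) of the other DKO peaks. For tRNA genes the order was the opposite, at 0.498% (0.241 to 1.02) against 1.70% (1.37 to 2.09). Long noncoding RNA genes were near 12.2% and 11.8%, and the intervals overlapped.

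Around starts the summits had a different shape of distribution. Of the other DKO summits within 2 kb of a start, 84.3% (83.1 to 85.5) lay downstream, on the side of the gene body. Distant gained summits lay downstream in 73.4% (68.0 to 78.1) and flanking ones in 56.1% (51.3 to 60.8). The median distance between summit and start was 527 bases for distant, 625 for flanking and 448 for the other DKO peaks. Flanking summits were thus split between both sides of the start. As the rule keeps gained peaks off WT peaks and the other DKO peaks on them, these differences in part restate the rule.

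**Figure D3:**
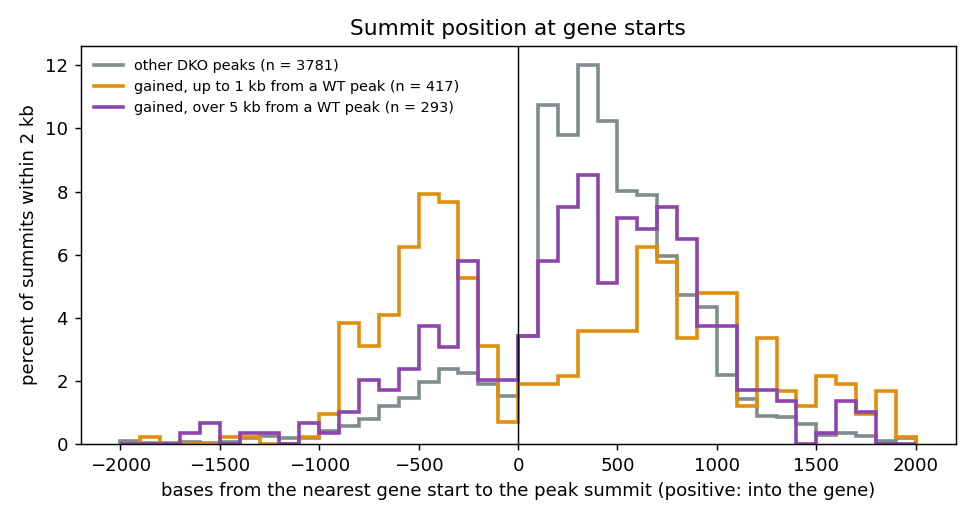
Position of peak summits relative to the nearest gene start, in bases, as a share of summits within 2 kb; positive values lie inside the gene. The other DKO peaks (n = 3781) lie mainly downstream, and flanking gained peaks (n = 417) form a hump on each side. Gained peaks are barred by the rule from places under WT peaks, which in part sets these shapes.

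Next, the gained peaks were set beside the KO H3K4me3 list. Only 11 of 1406 (0.782%, 0.437 to 1.40) overlapped a KO peak, against 13.7% (12.8 to 14.7) of the other DKO peaks and 10.9% of all DKO peaks. The KO list was short, with 918 peaks, 114 of which overlapped no WT peak and 10 of these overlapped a DKO peak. The rule keeps gained peaks off every WT peak and the other DKO peaks on one. With most KO peaks on WT peaks, the gap between the shares in part restates the rule. The share depended on the setting: it was 1.78% when peaks within 500 bases counted, and 2.81% (66 of 2345) when the WT list was cut to the length of the DKO list. Among peaks above the DKO median fold, 1.12% (0.437 to 2.85) of the gained and 542 of 2852 others overlapped a KO peak, but the gained ones were still lower there, with a median fold of 4.20 against 4.49 and a median width of 342 against 565 bases. The part of peak height in this gap was not tested. Depth and list length differed between KO and DKO together with genotype, and these cannot be told apart.

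Of the 11 shared with KO, 3 were at a gene start. Ppan, a ribosome biogenesis factor gene, had a gained peak of 521 bases and fold 3.78 at 144 bases from its start, and the KO peak there had a fold of 4.69. It lay 9357 bases from the nearest WT peak and was the only distant one at a start. Tardbp, which encodes the RNA-binding protein TDP-43, had a DKO fold of 4.60 and a KO fold of 5.28, beside a WT peak 458 bases away. Tra2b, a splicing regulator, had folds of 3.07 and 3.92 and a WT peak 135 bases away. The others lay inside or near Ttc39b, Fat3, Zfp600, LOC115485924, Gm15319, Defa21 and Sfi1, which had 2, with KO folds of 1.85 to 8.69.

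WDR5 and P53 peaks lay on few gained peaks. The DKO lists for these antibodies come from cells that the labels describe as a Wdr5 and p53 double knockout, and still held 166 and 226 WDR5 peaks and 99 and 179 P53 peaks. A WDR5 peak of any list overlapped 29 gained peaks (2.06%, 1.44 to 2.95), against 4.51% (3.97 to 5.12) of the other DKO peaks and 3.97% of all. Without the first WT WDR5 list the gained share was 1.42%. For the WT lists alone the shares were 1.64% and 3.89%, and for the DKO lists alone 0.711% and 2.31%. At or below the DKO median fold, the any-list shares were 2.00% (1.31 to 3.04) and 3.10% (2.45 to 3.92), with overlapping intervals. Above it they were 2.24% (1.14 to 4.36) and 5.58% (4.79 to 6.48). Gained peaks were also narrower and less often at starts. The part of height, width and place in the WDR5 gap was not tested.

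A P53 peak of any list overlapped 24 gained peaks (1.71%, 1.15 to 2.53), against 2.00% (1.64 to 2.42) of the others and 1.93% of all. The gained share rested on 1 list: without the second DKO P53 list, the deepest at 57.5 M fragments, it was 0.640%. WT P53 lists overlapped 6 gained peaks (0.427%, 0.196 to 0.928) against 1.44% of the others, while DKO P53 lists overlapped 22 (1.56%, 1.04 to 2.36) against 1.84%. The dense stretches of chromosomes 4, 8 and 11 described below held 5, 3 and 6 of the 24.

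**Figure D4:**
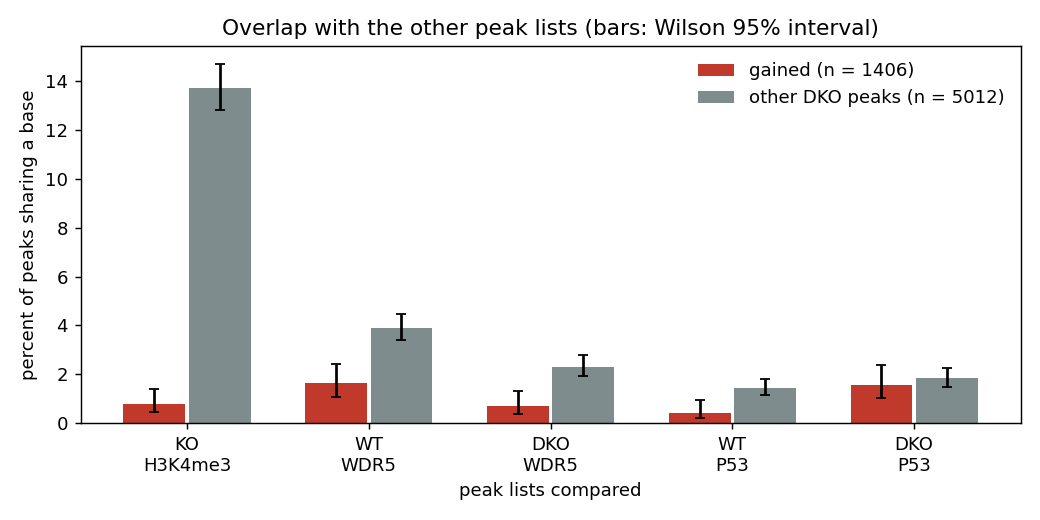
Share of gained (n = 1406) and other DKO (n = 5012) H3K4me3 peaks that share a base with the KO H3K4me3 list and with the WDR5 and P53 lists of each genotype; error bars are Wilson 95% intervals of counting. The KO list overlapped 0.782% of gained and 13.7% of other peaks, and the DKO P53 lists 1.56% and 1.84%. Most KO peaks lay on WT peaks, which the rule bars gained peaks from, so the KO gap in part restates the rule.

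Of the 29 gained peaks with WDR5, 15 were at a start, close to the share of 56.3% among all gained peaks. Of the 24 with P53, 2 were at a start and 15 inside genes away from starts, a place that held 310 of all 1406. The highest gained peak with WDR5 was at Zbtb3, a zinc finger gene, with a DKO H3K4me3 fold of 5.07 and WT WDR5 folds of 5.04 and 4.53. It had no peak in either DKO WDR5 list. The same pattern, both WT WDR5 lists and neither DKO list, was also seen, among others, at Mboat7 and Tsen34 (4.52 and 4.80), at Med22 and Rpl7a (5.57 and 5.58), at Prpf3 (6.68 and 6.17) and at Abcb8 (6.77 and 6.03). Rpl7a encodes a large ribosomal subunit protein, Prpf3 a splicing factor and Abcb8 a mitochondrial transporter. Ube3a, a ubiquitin ligase gene, had WT WDR5 folds of 5.49 and 5.06 and a flanking gained peak of 490 bases. Shb, an adaptor protein gene, kept a WDR5 peak in every list, with folds of 7.61 and 6.25 in the WT lists and of 5.49 and 5.14 in those of DKO.

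The highest P53 folds on a gained peak were at Zfp958, 13.5 and 12.8 in WT, with no DKO P53 peak. The H3K4me3 peak there was low (fold 3.17, 269 bases) and 288 bases from a WT H3K4me3 peak. The peak at St6galnac1, a sialyltransferase gene, overlapped all 8 WDR5 and P53 lists, with folds of 4.34 to 5.87, including the 4 lists from the double knockout. The 10 gained peaks that overlapped both antibodies included 2 in the chromosome 8 stretch, 2 in that of chromosome 4 and 3 in that of chromosome 11. Whether background shared by the antibodies contributed to these overlaps was not tested. At the starts of genes with no WT peak, 0 of 350 gained peaks overlapped a P53 peak, and 4 overlapped a WT WDR5 peak. The 0 allows a share of up to 0.857% taking 3 counts as the limit and 1.09% by the Wilson interval. Of all 791 gained peaks at a start, 2 overlapped a P53 peak, so the 0 does not show a lower share.

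The third question was which genes had a gained peak within 1 kb of the start. There were 866 of 21883 protein-coding genes (3.96%). Of these, 503 also had a WT peak within the window, so the gene was marked in both genotypes, and 363 (1.66%) had none. Among the 363, 70 had no listed start and were placed by either end of the gene. The 363 genes held 350 gained peaks, and 98 gained peaks of all 1406 lay within reach of 2 or more genes. For comparison, 8121 genes were marked in WT, 5223 in DKO and 731 in KO. Of the 363, KO marked 1, Ppan (0.275%), against 14.1% of the genes marked in both WT and DKO. The 363 were chosen to lack a WT peak and the comparison genes to have one. As only 114 of the 918 KO peaks overlapped no WT peak, this gap in part restates the rule.

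The highest distant peaks at genes without a WT peak, listed after their values were seen, were of mixed function. Gm20385 and the divergent pair Surf1 and Surf2 came first; Surf1 is an assembly factor of cytochrome oxidase. Htd2 and Rpp14, which share a start region and serve mitochondrial fatty acid synthesis and tRNA processing, had a peak of fold 5.08 and 668 bases. Fanca, of the Fanconi anaemia repair pathway, had a fold of 4.94 at 273 bases from the start, 55570 bases from a WT peak. Ythdf3, a reader of methylated adenosine in RNA, had a fold of 4.87 at 840 bases from the start, and no WT peak within 1296594 bases.

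Pathway lists were read against the background of 3.96% of all genes with a gained peak and 1.66% with a gained and no WT peak. Over 17 lists, with 570 different genes matched, 18 genes (3.16%) had a gained peak and 7 (1.23%) had no WT peak. The lists together thus had no higher share than all genes.

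Of 30 pluripotency genes, 2 had a gained peak, both without a WT peak. Nanog, a homeodomain factor of the pluripotency network, had a gained peak of 280 bases, fold 4.28 and pileup 36, 598 bases from its start and 32980 bases from the nearest WT peak. Dnmt3l, a cofactor of the de novo DNA methyltransferases, had one of 598 bases and fold 3.89 at 150 bases from its start, 40292 bases from a WT peak. The share of this list, 6.67%, rests on these 2 genes. WT marked 21 of the 30, DKO 18 and KO 6.

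Of 40 p53 target genes, 2 had a gained peak. Tigar, a p53-induced phosphatase of sugar metabolism, had no WT peak and a gained peak of 206 bases and fold 3.92 at 240 bases from its start. At Bid, a pro-apoptotic BCL2 family gene, the gained peak (207 bases, fold 3.58) flanked a WT peak 147 bases away. Neither overlapped a P53 peak. WT marked 28 of the 40, DKO 17 and KO 9.

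Among 25 genes of the complexes that write H3K4me3, 3 had a gained peak. Setd1a and Paxip1 are described above and were marked in WT. Kat8, a histone H4 acetyltransferase that works with the MLL1 subunits, had no WT peak and a gained peak of fold 3.22 7 bases from its start. Among 32 H3K4 demethylase and Polycomb genes, Rybp, a subunit of Polycomb repressive complex 1, had a distant peak of 512 bases and pileup 25.

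Of 36 cell cycle genes, 3 had a gained peak: Ccne2, cyclin E2 (fold 3.83, covering the start, no WT peak within the window), E2f3 (3.50) and Cdt1, a replication licensing factor (2.84). The Cdt1 peak also overlapped a WT WDR5 peak of fold 3.86. Ribosomal and translation genes had 3 of 34, at Eif3a, Eif5 and Rps6, all marked in WT. Tgfbr1, a TGF-beta receptor, was 1 of 67 signalling genes, and Irf3, an interferon regulator, 1 of 30 immune genes. Duxf3, a factor of the 2-cell stage, was 1 of 27 germline and 2-cell genes, and Cox7c, a cytochrome oxidase subunit, 1 of 28 nuclear genes of mitochondria. Duxf3 belongs to a repeated array, so reads there may be split among copies.

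No gained peak lay at any of 37 genes of the anterior neural plate and eye field, 37 of mesoderm and endoderm, 25 extraembryonic or 21 fibroblast markers. The same held for 45 HOX and related homeobox genes, 40 neuronal genes and 33 collagen and adhesion genes. Some of these lists had few calls in DKO at all: 2, 0, 2, 0, 0, 1 and 9 genes in the order given.

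Promoter composition was measured on RefSeq promoters from 250 bases before to 50 after the start. For genes with several starts the one nearest to a peak was used, and for genes marked in neither genotype the first by position. Of the 363 genes with a gained and no WT peak, 293 had a promoter entry. Of these 293 promoters, 75.1% (69.8 to 79.7) had an observed over expected CpG ratio of at least 0.6. The share was 87.5% (86.4 to 88.5) where WT and DKO were both marked, 80.8% (79.3 to 82.3) where WT alone was marked, 2624 of 10497 (interval 24.2 to 25.8%) where neither was, and 47.7% of all 21262 promoters. The median GC content was 60.7%, 62.0%, 63.7%, 51.3% and 56.3% in that order. Promoters with a gained and no WT peak thus stood closer to marked promoters than to unmarked ones in CpG. Their share was lower than where WT and DKO were both marked, and its interval overlapped that where WT alone was marked.

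**Figure D5:**
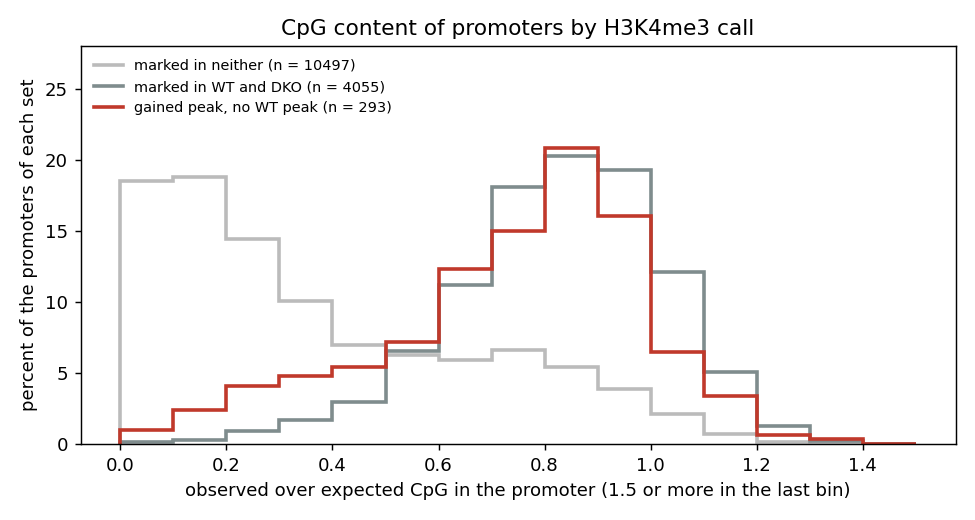
Observed over expected CpG ratio of promoters (300 bases) as a share of each set, by H3K4me3 call. Promoters with a gained and no WT peak (n = 293, 75.1% at 0.6 or more) follow those marked in WT and DKO (n = 4055, 87.5%) with a longer low tail, and those marked in neither (n = 10497) peak near 0 to 0.2.

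The 8 motifs were searched on both strands of the same promoters, and none of them contains another. The GC box was in 61.1% (55.4 to 66.5) of promoters with a gained and no WT peak, 70.9% of those marked in WT and DKO, and 46.2% of all promoters. The TATA box was in 9.22% (6.41 to 13.1), 5.15% and 12.6%, and the E-box in 15.0% (11.4 to 19.6), 12.1% and 7.84%. The ETS site was in 21.2% (16.9 to 26.2), 26.5% and 11.6%, and the NRF1 palindrome in 3.75%, 2.69% and 1.33%. The CCAAT box was in 40.6%, 39.5% and 38.2%, the cAMP response element in 3.07%, 4.22% and 2.23%, and the octamer in 1.71%, 1.18% and 1.66%. The intervals of the gained set overlapped or touched those of the set marked in both genotypes except for the TATA box, which was higher, and the GC box, which was lower.

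Gained peaks were spread over the chromosomes with a few dense places. Their share of the DKO peaks ran from 17.5% on chromosome 9 to 29.8% (26.1 to 33.9) on chromosome 8 among the autosomes. On X it was 37.3% (25.3 to 51.0), 19 of 51, and on Y 0 of 5. A stretch of chromosome 8 from 19 to 22 Mb held 28 gained peaks of 41 DKO peaks, 16 WT peaks and 17 KO peaks. None of the 28 was at a start, and their folds ran from 2.74 to 9.81. This stretch carries repeated gene models such as Gm15319 and alpha-defensin genes such as Defa21, and reads from near-identical copies may be placed in any of them.

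On chromosome 4, from 145 to 148 Mb, a cluster of zinc finger genes including Zfp980, Zfp985, Zfp988, Zfp534, Zfp600 and Zfp982 held 32 gained of 62 DKO peaks. Of the 32, 4 were at a start, and the folds ran from 2.22 to 5.24. WT had 42 peaks and KO 18 in this cluster. On chromosome 11, the stretch from 3000000 to 3300000 around Sfi1 held 9 gained peaks with a fold of 1.61 to 3.33 (median 1.78) and a pileup of 18 to 177. WT had 22 peaks and KO 13 in that stretch. Without the stretches of chromosomes 8 and 11, 1369 gained peaks were left, 0.511% of them overlapped KO and 1.10% a P53 peak. The stretch of chromosome 4, with 5 gained peaks on P53, was not left out there.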

How the data were processed

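Each of the 11 files is a peak list of 1 sample. Peaks were called by the authors with MACS2 (2.1.2 or 2.1.0.20150731) with no control sample, a q limit of 0.01, background taken over 10 kb and up to 2 duplicate fragments kept, per the file headers. The pileup is a coverage signal, and the -log10 p and -log10 q values and the fold enrichment, a ratio to local background, are the authors' deposited values. Bowtie2, SAMtools 1.5, bedtools, HOMER 4.10 and mm10 are named in the submitters' processing notes, with no role given. The headers of the 4 lists numbered 2 name merged alignments, so lists of a pair were not counted as replicates.

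Mitochondrial peaks were left out. Overlap meant at least 1 shared base. Gene starts came from the RefSeq promoter table (17491 genes, 21262 starts) and for 4392 genes without an entry either end of the span was used (GRCm38.p6). Exons and introns were not analysed here. Of 590 list entries, 587 matched.

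The peaks named were the 20 highest, the 10 widest, the 10 farthest from WT, up to 10 shared with KO, WDR5 or P53, those at listed genes, and the 5 on each side of the rule. Others, such as further overlaps and the highest distant peaks, were chosen after their values were seen. The promoters printed were the 5 with the highest peaks, leaving out chromosome 18. Members and lists were chosen with earlier results of these data known. The overlap code was tested on simulated intervals. Python 3.11.15, numpy 2.4.6, pandas 2.3.3, scipy 1.17.1 and matplotlib 3.10.9 were used.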

Additional observations from a re-analysis of the deposited data

How the results depend on the processing

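With 1 H3K4me3 library per genotype, no alternative can show how far the gained peaks would vary between cultures, and depth, background and genotype cannot be told apart. Of 78 values under 20 alternatives, 44 moved by less than their counting interval (counts by less than 1.5 times) and 34 moved. With the top 50% of DKO peaks by fold, 357 gained peaks were left with a median distance to WT of 14962 bases (their share above the median fold has no value there). With no WT peak within 500 bases the distance was 20567 and the share at starts 50.6%. With none within 5000 bases, 709 peaks were left, with 1.41% on WDR5, 46.4% at starts, a distance of 36067 and 29.9% above the median fold. Counting peaks less than 50% covered by WT peaks gave 62.2% at starts, 31.4% outside genes, a distance of 558 and 29.5% above the median fold. With the WT list cut to the length of the DKO list, 2345 peaks were gained, of which 2.81% overlapped KO, 3.20% WDR5 and 2.69% P53, with 64.1% at starts, 30.0% outside genes, a distance of 25070 and 29.3% above the median fold. Counting peaks within 500 bases as overlapping gave 1.78% for KO and 3.98% for WDR5. A 5 kb window gave 69.9% at starts, and all genes of the reference gave 63.0% at starts and 27.2% outside genes. Leaving out single lists gave 1.42% to 2.06% on WDR5 and 0.640% to 1.71% on P53. The lowest of each came without the first WT WDR5 and without the second DKO P53 list. The following were chosen after seeing the data. Using either end of every gene gave 51.4% at starts. Leaving out the dense stretches of chromosomes 8 and 11, with that of chromosome 4 kept, gave 1.10% on P53. Gained peaks more than 1 kb from a WT peak and from any DKO peak on one numbered 817, with 46.9% at starts, a distance of 28902 and 28.4% above the median fold. No paired analysis was possible because each genotype had 1 H3K4me3 library and no result came from a test between replicates.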

Other observations

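Families were also recognised by gene symbol, a choice made after the names of the marked genes were seen, and are read against the 3.96% of all genes with a gained peak. Of 63 clustered replication histone genes, 14 (22.2%) had a gained peak, and 13 of them had no WT peak. These genes, which encode the core histones made in S phase, shared 10 gained peaks, 8 on chromosome 13 and 2 on chromosome 3, with folds of 3.17 to 3.85. The widest, of 799 bases and fold 3.73, lay within 1 kb of the starts of H3c8 and H2ac10 and overlapped H2ac10, 603 bases from a WT peak. At H3c2 and H2ac4 a peak of 247 bases and fold 3.17 stood 207788 bases from the nearest WT peak. WT marked 12 of the 63 genes, DKO 17 and KO 0, with 4 marked in both WT and DKO. The genes are near-identical copies, and placement of reads among them was not tested.

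Cytosolic ribosomal protein genes had a gained peak at 14 of 84 (16.7%), but 8 of these also had a WT peak; Rpl10a, Rpl22l1, Rpl39l, Rplp1, Rps15a and Rps28 had none. WT marked 70 of the 84 and DKO 71. Zinc finger genes named Zfp had 31 of 397 (7.81%), 15 of them without a WT peak, such as Zfp977 (fold 4.87) and Zfp54 (4.55). Solute carrier genes had 16 of 375 (4.27%), and the 1110 olfactory and 355 vomeronasal receptor genes had 0 and no WT or DKO peak at all. As a gained peak is a DKO peak, these shares also depend on how many genes of a family DKO marked. Of the genes marked in DKO, 866 of 5223 had a gained peak. The counts were 14 of 71 for ribosomal protein, 31 of 145 for Zfp, 16 of 76 for solute carrier and 14 of 17 for histone genes.

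Several genes singled out after their values were seen had a gained and no WT peak at the start. The list of germline and 2-cell genes had 1 of 27 with a gained peak, Duxf3, which was marked in WT. Germ cell and meiosis genes were Psma8, a testis proteasome subunit (fold 5.08), Rnf17, a Tudor domain protein (4.08), Tex14 (3.70), Syce2, of the synaptonemal complex (3.69), Terb2, Hsf2bp and Ddx43. Prdm9, the H3K4 methyltransferase of meiotic recombination sites, had 2 gained peaks, of 320 and 358 bases. DNA repair genes were Fanca (4.94), Nbn, a sensor of double-strand breaks (4.73), Rad54b (4.02) and Rad51c (3.70), whose peak is the one at Tex14. Sirt1 (4.05, 788 bases) and Sirt6 (3.60), NAD-dependent deacylases, were both among them. Cell death regulators were Xiap (3.68), Birc3 (3.61), Tradd (3.57) and Cflar (3.47). Asns, asparagine synthetase (3.85), Prodh, proline dehydrogenase (3.68), and Phgdh, of serine synthesis (3.15), were the genes of amino acid metabolism. As these were picked from the 363 genes, they carry no count against a background.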
